A study of Mus musculus with 12 samples.

Results

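The transcripts described are 49 DNA repair genes of 24259 gene symbols in the deposited expression table of mouse oocytes. They were taken by symbol from a list of homologous recombination, mismatch repair, excision repair and end-joining genes. By role they comprise 12 strand exchange genes, 7 end processing genes, 7 genes of single-strand DNA binding and damage signalling, 4 mismatch repair genes, 5 end joining genes, 4 base excision and nick sealing genes, 6 nucleotide excision genes and 4 Fanconi anaemia genes. Germinal vesicle (GV) oocytes, which are arrested at the first meiotic prophase, came from WT mice and from Lsm14b-KO mice that are homozygous for tm1a(KOMP)Mbp, a reporter-tagged insertion allele, on the C57BL/6J background. All mice were 3 weeks old and had received 5 IU of PMSG 46 h before collection, and about 1500 oocytes, which pools animals, went into a lysate. Cycloheximide-treated lysates were separated on sucrose gradients, and RNA of fractions 1 to 10 was pooled as RNP (free ribonucleoprotein) and RNA of fractions 11 to 28 as polysomes. Each combination of genotype and pool was sequenced in 3 libraries, 12 in all. The question addressed is which transcripts sit on polysomes or outside them when LSM14B, an RNA-binding protein of the oocyte, is missing.

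Double-strand breaks are repaired either by homologous recombination, in which resected ends invade an intact template, or by end joining, in which the ends are ligated directly. Base damage and bulky lesions are cut out by excision pathways, and mispaired bases by mismatch repair. Meiotic prophase starts with programmed breaks that are repaired by recombination, and the fully grown oocyte, which has almost stopped transcription, relies on stored transcripts of these genes for its own damage response and for that of the early embryo.

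Lsm14b itself was read first as a check of the labels. WT polysome libraries held 11.3, 15.3 and 13.2 FPKM of it (fragments scaled to transcript length and library depth), and WT RNP libraries held 34.6, 29.3 and 27.4 FPKM. It was listed at 0.260, 0 and 0.0876 FPKM in KO polysomes and at 0.893, 0.0627 and 0 FPKM in KO RNP. All KO libraries therefore lay under all WT libraries of the same pool, with a two-sided exact permutation p of 0.1 in each pool, which is the lowest that 3 against 3 can give. limma gave a change of -3.67 in polysomes (SE 0.42, adjusted p = 0.00271) and of -4.63 in RNP (SE 0.35, adjusted p = 5.66e-05). No library went against its genotype label.

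Oocyte markers were above 0 in every library, 12 of 12, with Gdf9 as the most abundant gene. Their sums were 23418, 24973 and 22687 FPKM in WT polysomes, 25127, 24754 and 26623 FPKM in KO polysomes, 5366, 5706 and 5742 FPKM in WT RNP and 7216, 6981 and 7123 FPKM in KO RNP, so that all KO RNP libraries were above all WT RNP libraries. Without Gdf9 the RNP sums overlapped, at 2442, 2788 and 2568 FPKM in WT and 2789, 2503 and 3072 FPKM in KO. Dazl was called lower in KO in both pools (-1.79 in polysomes and -1.58 in RNP, adjusted p = 0.0174 and 0.000141 from limma), and Zar1 in polysomes. Nlrp5 and Zp3 were called higher in both pools, Zp2 in polysomes, and Figla, Gdf9, Npm2 and Oosp1 in RNP. Markers of granulosa and cumulus cells, the somatic neighbours of the oocyte, were also present. Their 16 genes summed to 224, 179 and 143 FPKM in WT polysomes, 237, 255 and 324 FPKM in KO polysomes, 199, 209 and 222 FPKM in WT RNP and 262, 263 and 225 FPKM in KO RNP. Serpine2 made up most of each sum. Without it the sums were 76.3, 28.1 and 44.4 FPKM in WT polysomes, 88.4, 97.1 and 110 FPKM in KO polysomes, 37.3, 31.3 and 34.8 FPKM in WT RNP and 66.6, 61.5 and 43.3 FPKM in KO RNP. Of the 16 genes, 9, 9 and 8 were listed at 0 in WT polysomes against 3, 6 and 6 in KO polysomes, and 9, 11 and 12 in WT RNP against 6, 4 and 6 in KO RNP. Foxl2, a defining granulosa gene, was at 0 in all libraries except KO RNP replicate 2 (1.01 FPKM), whereas Inha had 9.58, 0 and 8.11 FPKM in polysomes of WT and 51.4, 39.4 and 39.5 FPKM in those of KO. Theca and stroma markers summed to at most 2.58 FPKM, with Star at 0 throughout, and 4 of 8 blood markers (Ptprc, Hba-a1, Hbb-bs and Cd3e) were at 0 in all libraries, the rest being mostly Pecam1. Of single granulosa markers, limma called Inha (change 3.27, adjusted p = 0.0364), Gja1 (3.05, 0.00611), Inhba (2.94, 0.0105) and Fshr (2.22, 0.0224) higher in KO polysomes, and Inha also in KO RNP (2.79, 0.00238). Cyp19a1, uncalled, had 62.0, 19.0 and 32.0 FPKM in polysomes of WT and 14.6, 23.5 and 34.5 FPKM in those of KO, and Serpine2 was called in neither pool (changes of 0.39 and 0.14, adjusted p = 0.275 and 0.385 from limma). The summed granulosa level was thus higher in all KO than in all WT libraries of both pools. Msh3, Nbn and Rpa1 were also higher in all KO libraries of both pools. They are 3 of 41 repair genes (7.32%), beside 9.4% of 9100 genes tested in both pools. The part of granulosa and cumulus cells in the results below was not tested. Fewer cells of a type and less RNA per cell cannot be told apart in such bulk libraries.

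Depth, estimated from the steps between the lowest FPKM values, in units of 1000000 fragments, was 6.12, 6.40 and 7.91 for WT polysomes, 6.60, 5.13 and 4.87 for KO polysomes, 7.33, 6.70 and 6.48 for WT RNP and 7.62, 6.73 and 6.53 for KO RNP. Genes above 0 numbered 10566 to 10814 in WT polysomes and 11458 to 11650 in KO polysomes, with a median FPKM above 0 of 7.89 to 8.76 and 6.51 to 7.07. In RNP they numbered 12720, 11282 and 11270 in WT and 12487 to 12595 in KO, so that WT RNP replicate 1 stood with the KO libraries. KO polysome replicate 2 differed from the others in that Mir300 was listed at 170809 FPKM and the 10 most abundant genes took 34.7% of the summed FPKM. Low repair genes rest on few fragments at this depth, so values near or under 1 FPKM are imprecise.

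Levels of the 49 genes ranged from 0.0441 to 126 FPKM in the mean over libraries, and Rpa1 was the highest in every library. Mean FPKM over the 12 libraries was under 1 for 8 genes, 1 to 5 for 10, 5 to 10 for 7, 10 to 50 for 21 and at least 50 for 3. FPKM is scaled to transcript length, so these levels can be set against each other. The highest means were those of Rpa1 (126 FPKM), Rpa2 (89.2 FPKM), Msh6 (58.8 FPKM), Xrcc3 (49.7 FPKM) and Brca2 (40.4 FPKM). Between 46 and 49 of the 49 genes were above 0 in a library, and between 38 and 44 reached 1 FPKM. Together they made up 0.138% to 0.191% of the summed FPKM of a library.

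**Figure D1:**
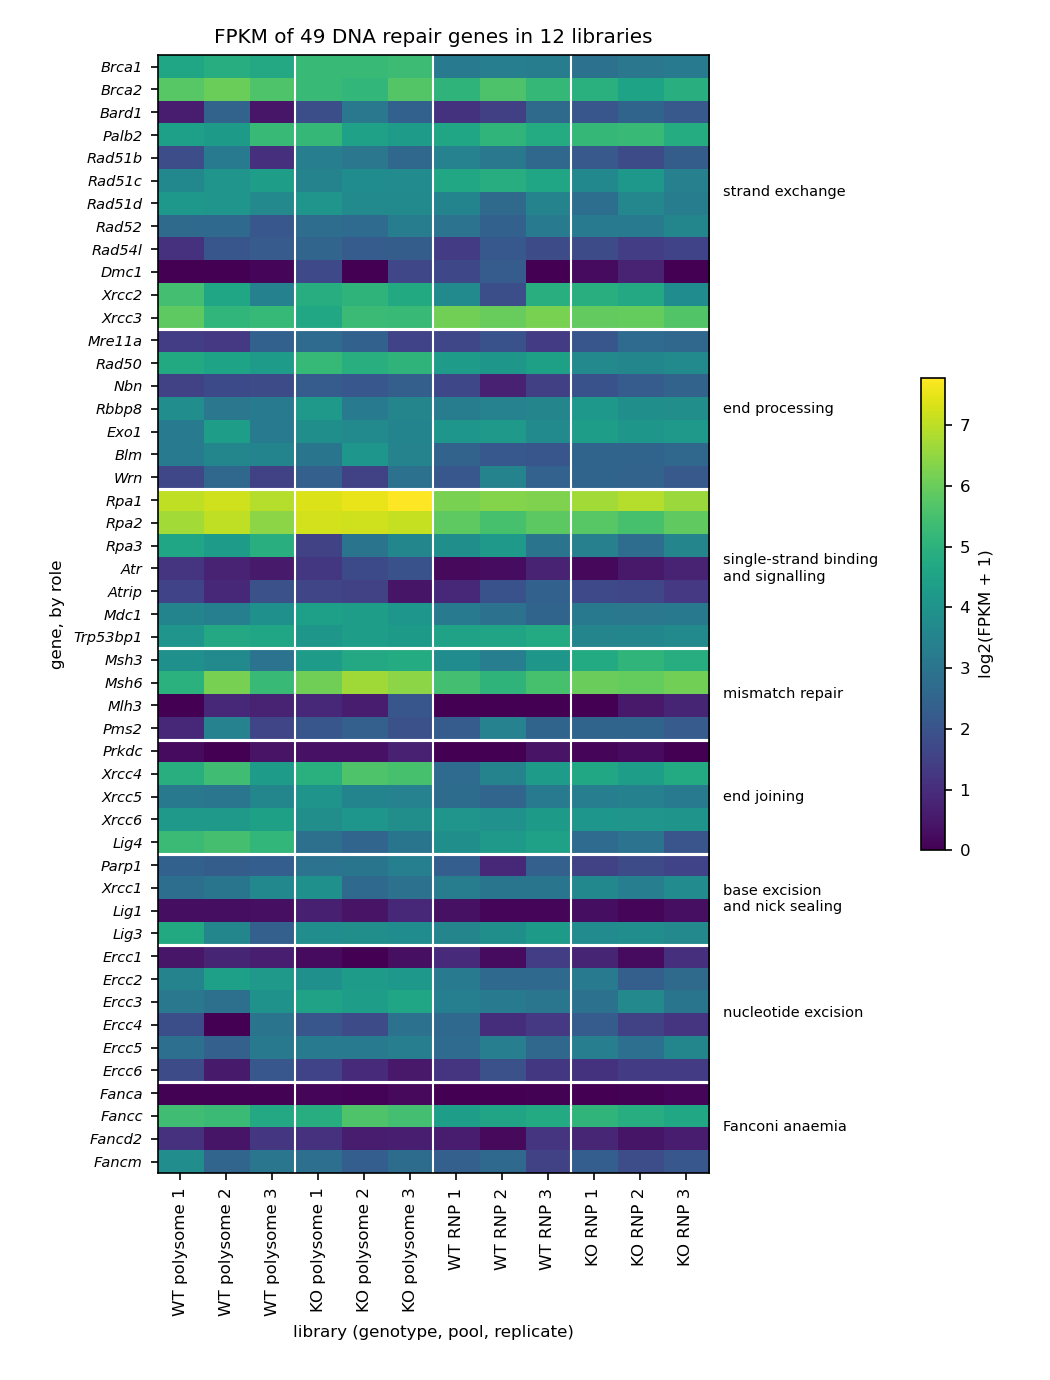
Heat map of log2(FPKM + 1) of the 49 repair genes, 1 line a gene ordered by role, in the 12 libraries given by genotype, pool and replicate. Rpa1 and Rpa2 are the brightest lines in polysomes, and range over all 12 libraries from 72.7 to 219 and from 44.4 to 152 FPKM. In each RNP library Xrcc3 or Msh6 lies above Rpa2. Prkdc, Lig1 and Fanca are the darkest lines, all under 1 FPKM in every library.

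KO was compared with WT in each pool with limma on log2(FPKM + 1), keeping genes with 3 or more of the compared libraries at 1 FPKM or higher, and a gene was called when its adjusted p (Benjamini-Hochberg over all genes tested) was under 0.05. The pseudocount of 1 makes log2 changes of low genes smaller than their change in FPKM. The p-values measure the spread between these libraries only, since the labels do not say that replicates came from separate animals or that the pools of a replicate came from separate lysates. Of the 49 genes, 43 were tested in polysomes, 41 in RNP, 44 in the polysome-to-RNP ratio, 42 between pools in WT and 42 between pools in KO, and 41 in all 5 comparisons. Mlh3, Prkdc, Lig1, Ercc1 and Fanca were under the filter everywhere. Dmc1 was tested only in the ratio, Atr in neither RNP nor the WT pools, and Fancd2 in neither RNP nor the KO pools.

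In polysomes, Lig4 was the only repair gene called, as lower in the KO, and none was called higher. Across all 9536 genes tested, 5.64% were called higher and 4.73% lower, so 1 of 43 (2.33%) is a smaller share than the 10.4% called in either direction. At an unadjusted limma p under 0.05, 8 repair genes were higher and 2 lower, 23.3% of those tested beside 26.3% of all genes. The 8 became 5 without WT polysome replicate 1 or KO polysome replicate 1, and 3 without KO polysome replicate 2 or 3. The median change of the 43 genes was 0.33, beside 0.10 for all genes tested, and 69.8% of them had a change above 0, beside 55.7% of all genes. Without WT polysome replicate 3 the median was 0.21, beside 0.08 for all genes, and without WT polysome replicate 1 the genes above 0 were 26 of 43. KO libraries lay above all WT libraries for 13 of the 43 and below them for 3, beside 18.2% and 13.4% of all genes. Without WT polysome replicate 2, Msh6 would also be called higher (change 1.27, adjusted p = 0.0211 from limma), and without WT polysome replicate 3, Ercc3 (change 1.49, adjusted p = 0.0330 from limma).

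In RNP, Msh3, Msh6 and Rpa1 rose and Lig4, Rad51c and Trp53bp1 fell in the KO. These 6 of 41 genes (14.6%) stand beside 20.7% of all 9931 genes called, 10.5% higher and 10.2% lower, so the share of repair genes called was no larger than that of other genes. The median change was -0.02, beside 0.05 for all genes, and it turned to 0.05 after the libraries were rescaled to the same median, beside 0.11 for all genes, and to 0.04 after quantile normalization, beside 0.04. Without WT RNP replicate 1, 2 or 3 or KO RNP replicate 2 it was 0.08, 0.10, 0.06 and 0.07, so it has no fixed sign. Groups did not overlap for 10 genes with KO above WT and 8 with KO below, beside 20.7% and 18.4% of all genes. Without KO RNP replicate 1 only Msh3 was called higher, and without KO RNP replicate 2 none was. For the polysome-to-RNP ratio, tested as the interaction of genotype and pool, limma called none of 44 repair genes, beside 0.0822% of 10949 genes called higher and 0.155% lower. At an unadjusted p under 0.05 the ratio was higher for 6 repair genes and lower for 1, 15.9% of those tested beside 11.1% of all genes. Without KO RNP replicate 1 these were 3 and 0, and without WT polysome replicate 1 or WT RNP replicate 1 they were 4 and 0.

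**Figure D2:**
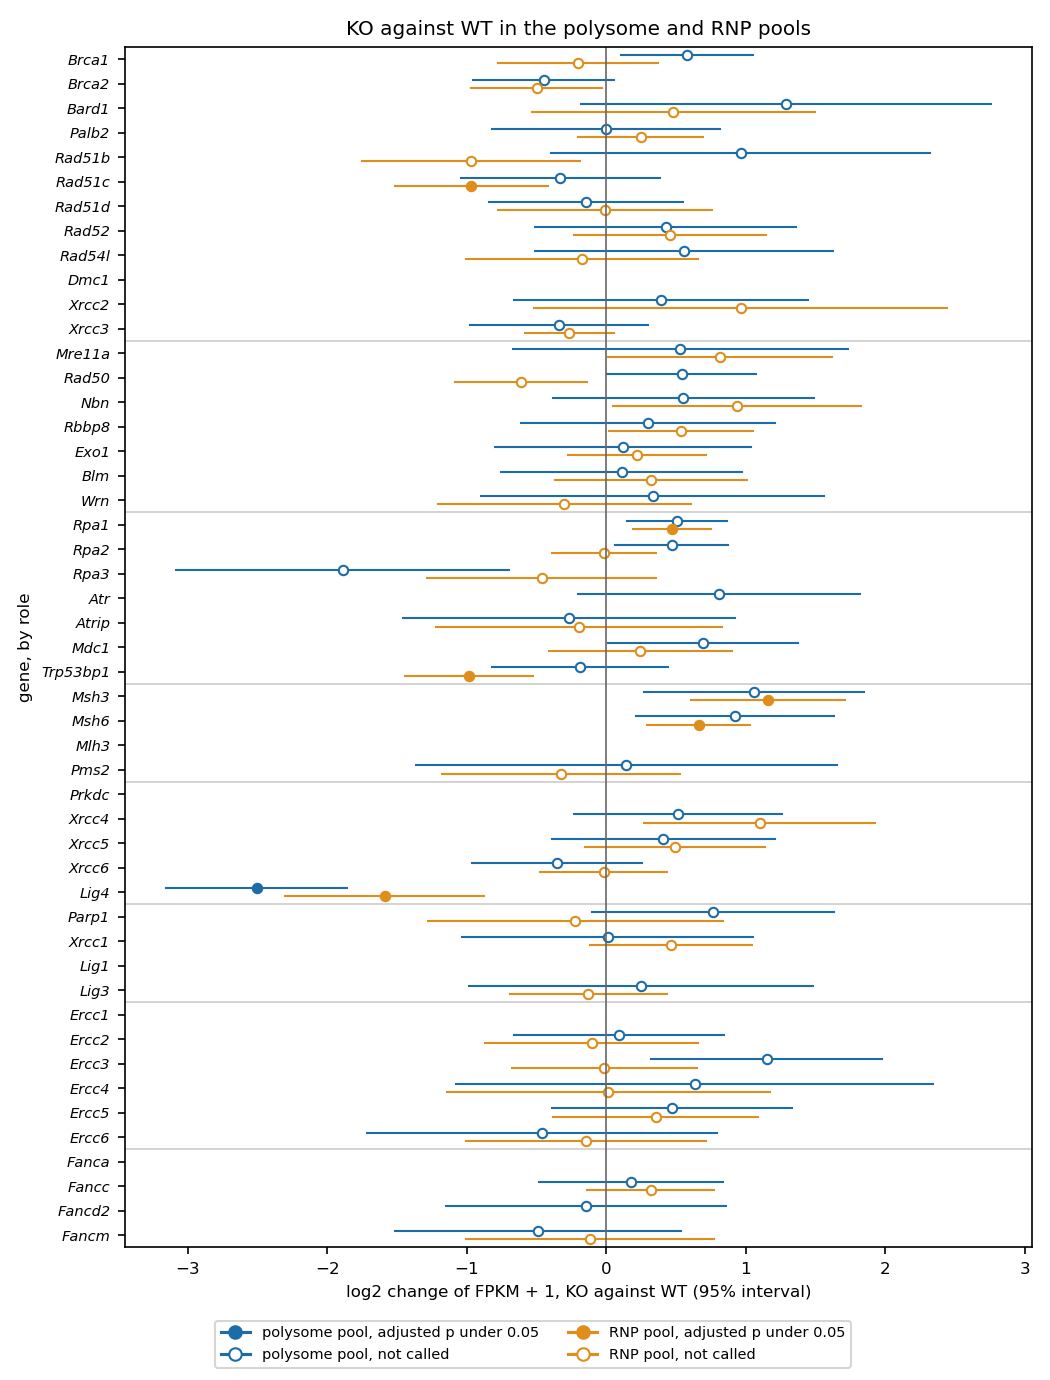
Log2 change of FPKM + 1, KO against WT, with its 95% interval from limma, for repair genes ordered by role in the polysome pool (blue) and the RNP pool (orange), filled where the adjusted p was under 0.05. Lig4 lies farthest to the left in both pools (-2.51 and -1.59), and Msh3 and Msh6 lie to the right in both, filled in RNP only.

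End joining held the largest change between genotypes of any tested gene among the 49. Lig4 encodes DNA ligase IV, which seals the ends in the last step of the pathway. Polysomes of WT held 38.1, 43.5 and 34.7 FPKM of it and those of KO 6.27, 4.77 and 7.08 FPKM, and RNP held 13.6, 17.5 and 20.7 FPKM in WT and 5.65, 6.83 and 3.14 FPKM in KO. Every KO library was below every WT library of its pool, with a wide gap in polysomes. The change was -2.51 in polysomes (SE 0.29, adjusted p = 0.00274 from limma) and -1.59 in RNP (SE 0.32, adjusted p = 0.00804 from limma). Leaving out any single library kept both calls, with changes from -2.61 to -2.37 in polysomes and from -1.78 to -1.32 in RNP. The ratio of the pools was lower by a change of -0.92 in the KO (SE 0.42, unadjusted p = 0.0460, adjusted p = 0.436 from limma), so a larger loss from polysomes than from RNP was not shown. Xrcc4, the partner that stabilises this ligase, went the other way in value. Its FPKM was 29.0, 41.1 and 18.1 in WT polysomes, 29.9, 48.8 and 44.7 in KO polysomes, 5.57, 10.3 and 18.3 in WT RNP and 24.5, 19.2 and 26.2 in KO RNP. KO RNP libraries lay above the WT ones without overlap, but the RNP change of 1.10 was not called (SE 0.37, adjusted p = 0.0630 from limma), and it was called after median rescaling, after quantile normalization, with a filter at 5 FPKM and without WT RNP replicate 3. Xrcc5 and Xrcc6, the Ku subunits that cap broken ends, ranged over 4.81 to 15.4 FPKM and 13.3 to 20.6 FPKM without a call, and Prkdc, the kinase recruited by Ku, stayed at or under 0.656 FPKM.

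RefSeq (GRCm38.p6) holds the bases before a start for 39 of the 49 genes, at 1 or more starts a gene. GGGCGG, the GC box, was found on either strand in the 250 bases before a start for 26 of 39 repair genes (66.7%), beside 35.4% of all genes and 32.7% of all 32851 promoters of that length. CCAAT on either strand was found for 22 of 39 (56.4%), beside 37.5% of genes and 33.8% of promoters. TTTCGCGC, TTTGGCGC or TTTCCCGC, spellings of the E2F motif, were found for 5 of 39 (12.8%), beside 1.78% of genes and 1.53% of promoters. The genes beside them are all 27025 symbols with such bases, whether or not they passed the expression filter. These shares are therefore not those of the genes tested above. A match describes these letters only. Abhd13 starts on the opposite strand, 21 bases from the outermost annotated start of Lig4, and was looked at after the values of Lig4 were seen. Its FPKM was 36.0, 21.6 and 39.8 in WT polysomes, 10.9, 17.2 and 27.3 in KO polysomes, 48.8, 34.5 and 42.2 in WT RNP and 38.3, 36.7 and 36.6 in KO RNP. In polysomes WT and KO overlapped for this neighbour, and its change of -0.83 was not called (SE 0.38, adjusted p = 0.204 from limma). No exon of another gene overlaps Lig4 in GENCODE M21.

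**Figure D3:**
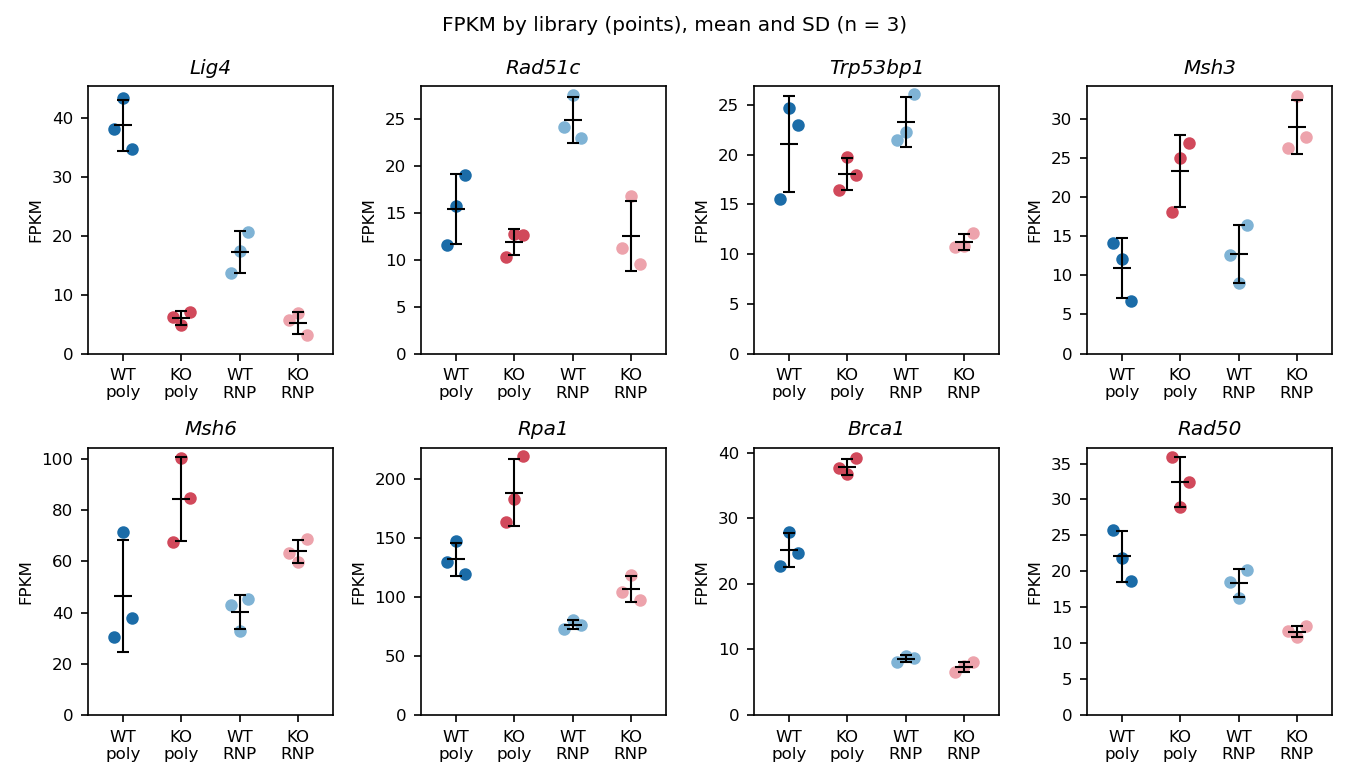
FPKM of 8 repair genes in each library (points) by genotype and pool, with the mean and SD of 3 libraries, on axes that start at 0. Lig4, Rad51c and Trp53bp1 are lower in KO RNP, Msh3, Msh6 and Rpa1 higher, and Brca1 and Rad50 lie above WT in KO polysomes and below WT in KO RNP.

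In mismatch repair, Msh3 and Msh6 were called higher in RNP and Pms2 was not, beside 10.5% of all genes called higher. Msh3 and Msh6 encode mismatch sensors, for insertion-deletion loops and for single mispairs. Msh3 stood at 12.6, 9.06 and 16.4 FPKM in WT RNP and 26.3, 32.9 and 27.7 FPKM in KO RNP, and at 14.1, 12.1 and 6.73 FPKM in WT polysomes and 18.1, 25.0 and 26.9 FPKM in KO polysomes. KO libraries were higher than all WT libraries in both pools. Its RNP change was 1.16 (SE 0.24, adjusted p = 0.0103 from limma) and its polysome change 1.06, not called (SE 0.35, adjusted p = 0.0890 from limma). The pools did not differ detectably, with a ratio change of -0.10 (SE 0.42, adjusted p = 0.957 from limma). Msh6 stood at 43.1, 32.7 and 45.2 FPKM in WT RNP against 63.1, 59.9 and 68.8 FPKM in KO RNP, and at 30.4, 71.3 and 37.7 FPKM in WT polysomes against 67.6, 100.4 and 84.9 FPKM in KO polysomes. WT polysome replicate 2 was the only WT library inside the KO range. The change of Msh6 was 0.66 in RNP (SE 0.16, adjusted p = 0.0195 from limma), 0.92 in polysomes (SE 0.31, adjusted p = 0.0979 from limma) and 0.26 in the ratio (SE 0.38, adjusted p = 0.854 from limma). The RNP call of Msh3 was lost without KO RNP replicate 2 (adjusted p = 0.0530 from limma). That of Msh6 was lost without KO RNP replicate 1, 2 or 3 (adjusted p = 0.0684, 0.0539 and 0.0836 from limma) and without the intensity trend (adjusted p = 0.0669 from limma).

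Pms2, which takes part in the cut of the new strand, ranged from 0.846 to 10.0 FPKM without a call, and Mlh3, its counterpart in crossover formation, from 0 to 3.23 FPKM. Reads of the Msh3 exons that overlap a neighbouring gene, and of the Msh6 exons that overlap Fbxo11, cannot be assigned with certainty, since the labels name no strand-specific protocol. The transcript ends of these called genes are shown for their poly(A) signals.

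The 3′ ends are given for 6 genes that the results turn on, as 30 bases near the annotated transcript end in GENCODE M21 on GRCm38, where all 49 genes had an end. Capitals mark AATAAA or ATTAAA, the hexamers that direct cleavage, and TTTTAT, a cytoplasmic polyadenylation element of stored maternal transcripts, all on the transcript strand. They lie at chr13:92211881-92211910 (minus) for Msh3, chr17:87990862-87990891 (plus) for Msh6, chr11:75298177-75298206 (minus) for Rpa1, chr11:87376646-87376675 (minus) for Rad51c, chr2:121194838-121194867 (minus) for Trp53bp1 and chr11:101488764-101488793 (minus) for Brca1.
Msh3: tacttaAATAAAaatatggaatgaatactt
Msh6: tgatctAATAAActttatttttaaaaaatg
Rpa1: ccagtgTTTTATgccttccATTAAAccctt
Rad51c: tgAATAAATAAAaattctggacttttaaaa
Trp53bp1: gtaagcactcAATAAAgacttcaattatga
Brca1: taatactgcaAATAAActaaatagcaaaca
In the last 100 bases, AATAAA or ATTAAA was found for 38 of 49 repair genes (77.6%), beside 81.5% of 10100 genes tested with an annotated end. TTTTAT or TTTTAAT was found for 10 of 49 (20.4%), beside 19.4% of those genes. Of the 6 ends shown, only that of Rpa1 holds TTTTAT within the printed bases, and none of the 4 motifs is in the last 100 bases of Lig4. The loci given with the FPKM values end at chr11:75300258 for Rpa1 and chr8:9970019 for Lig4, both on the minus strand. The ends searched for both genes therefore lie beyond the loci that were quantified.

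Of the genes of single-strand DNA binding and damage signalling, 1 of 6 tested in RNP was called higher and 1 lower, beside 10.5% and 10.2% of all genes. None of 7 was called in polysomes, beside 10.4% of all genes. Rpa1 encodes the large subunit of replication protein A, which coats resected DNA. It stood at 72.7, 80.5 and 76.1 FPKM in WT RNP and 104, 119 and 97.1 FPKM in KO RNP, and at 129, 147 and 119 FPKM in WT polysomes and 163, 183 and 219 FPKM in KO polysomes. All KO libraries were higher than all WT libraries in each pool, and the changes were almost equal. They were 0.47 in RNP (SE 0.12, adjusted p = 0.0255 from limma), 0.51 in polysomes (SE 0.16, adjusted p = 0.0767 from limma) and 0.03 in the ratio (SE 0.20, adjusted p = 0.971 from limma). The RNP call was lost without WT RNP replicate 1, KO RNP replicate 1 or KO RNP replicate 2 (adjusted p = 0.0602, 0.0780 and 0.114 from limma) and without the intensity trend (adjusted p = 0.111 from limma).

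Rpa2, the middle subunit, stood at 104, 131 and 84.6 FPKM in WT polysomes, 152, 148 and 137 FPKM in KO polysomes, 57.2, 44.7 and 55.7 FPKM in WT RNP and 53.2, 44.4 and 58.4 FPKM in KO RNP. KO polysomes were above WT without overlap, while the RNP groups lay on top of each other. Neither change was called (0.47, SE 0.18, adjusted p = 0.139 in polysomes and -0.02, SE 0.16, adjusted p = 0.961 in RNP, both from limma), and the RNP change turned to 0.05 after rescaling to the same median and 0.03 after quantile normalization. Rpa3, the small subunit, had lower values in KO polysomes. It stood at 23.1, 18.2 and 29.1 FPKM in WT polysomes, 1.88, 6.91 and 10.9 FPKM in KO polysomes, 13.6, 17.6 and 7.04 FPKM in WT RNP and 9.38, 5.84 and 10.7 FPKM in KO RNP. KO polysome libraries all lay below the WT ones, but the change of -1.89 missed the threshold (SE 0.52, adjusted p = 0.0546 from limma). It passed with a pseudocount of 5 (adjusted p = 0.0361 from limma) or a filter at 5 FPKM (adjusted p = 0.0368 from limma). Its change was -0.46 in RNP (SE 0.36, adjusted p = 0.412 from limma) and -1.43 in the ratio (SE 0.68, adjusted p = 0.459 from limma).

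Trp53bp1 encodes 53BP1, which protects ends from resection and favours end joining. It stood at 21.4, 22.3 and 26.1 FPKM in WT RNP and at 10.7, 10.8 and 12.1 FPKM in KO RNP, with 15.6, 24.7 and 23.0 FPKM in WT polysomes and 16.5, 19.7 and 18.0 FPKM in KO polysomes. RNP levels were well apart and polysome levels overlapped. The RNP change was -0.99 (SE 0.20, adjusted p = 0.00933 from limma), called in each fit with 1 library left out, and the polysome change was -0.19 (SE 0.28, adjusted p = 0.716 from limma). The ratio change of 0.80 was not called (SE 0.32, unadjusted p = 0.0271, adjusted p = 0.363 from limma), so the pools are not shown to differ. Mdc1, which binds phosphorylated histone H2AX at breaks, stood at 10.4, 9.26 and 14.0 FPKM in WT polysomes and 19.9, 19.7 and 16.2 FPKM in KO polysomes, with all KO libraries above WT and no call (change 0.69, SE 0.30, adjusted p = 0.181 from limma). The kinase gene Atr ranged from 0.130 to 2.89 FPKM and its partner Atrip from 0.344 to 4.32 FPKM, neither called. The exons of Trp53bp1 overlap those of Tubgcp4 in part.

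Of strand exchange genes, the largest group, 1 of 11 tested was called in RNP and none in polysomes (limma, with 1 at an unadjusted p under 0.05), beside 20.7% and 10.4% of all genes. Rad51c, Rad51b, Rad51d, Xrcc2 and Xrcc3 encode related proteins that help strand exchange to start. Rad51c, called lower in RNP, stood at 24.1, 27.6 and 22.9 FPKM in WT RNP and 11.3, 16.8 and 9.53 FPKM in KO RNP. In WT polysomes it stood at 11.5, 15.7 and 19.0 FPKM, and in KO polysomes at 10.3, 12.7 and 12.6 FPKM. All KO RNP libraries were lower than all WT RNP libraries, and the polysome groups overlapped. Its RNP change was -0.97 (SE 0.24, adjusted p = 0.0214 from limma), with -0.33 in polysomes (SE 0.31, adjusted p = 0.557 from limma) and 0.64 in the ratio (SE 0.38, adjusted p = 0.573 from limma). The RNP call was lost without WT RNP replicate 1 or 2 (adjusted p = 0.0501 and 0.0536 from limma) and without KO RNP replicate 1 or 3 (adjusted p = 0.0797 and 0.0833 from limma). Rad51b stood at 10.0, 7.72 and 5.03 FPKM in WT RNP and 3.55, 2.40 and 3.95 FPKM in KO RNP, without overlap, and at 2.57, 8.44 and 1.07 FPKM in WT polysomes and 9.11, 7.45 and 5.03 FPKM in KO polysomes, with overlap. Its RNP change of -0.97 (SE 0.35, adjusted p = 0.0779 from limma) and its ratio change of 1.93 (SE 0.71, unadjusted p = 0.0168, adjusted p = 0.316 from limma) were not called. Without WT RNP replicate 3 its RNP change was called lower.

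Brca1 encodes the ubiquitin ligase subunit that directs breaks to recombination. It stood at 22.7, 27.9 and 24.7 FPKM in WT polysomes, 37.6, 36.7 and 39.2 FPKM in KO polysomes, 8.07, 9.06 and 8.64 FPKM in WT RNP and 6.49, 7.49 and 8.07 FPKM in KO RNP. KO lay above WT in polysomes and below WT in RNP, each without overlap, although in RNP the nearest libraries, WT replicate 1 (8.06793 FPKM) and KO replicate 3 (8.06766 FPKM), were almost equal. Brca1 and Rad50 were the repair genes with such opposite order in the pools, a pattern chosen after the values were seen, and are 2 of 41 tested in both pools (4.88%), beside 0.527% of 9100 genes with KO above WT in polysomes and below it in RNP. No test of this share was made. The polysome change of Brca1 was 0.58 (SE 0.21, adjusted p = 0.117 from limma), the RNP change -0.20 (SE 0.25, adjusted p = 0.623 from limma) and the ratio change 0.78 (SE 0.29, unadjusted p = 0.0192, adjusted p = 0.331 from limma), none of them called. Bard1, its partner, had the largest change of KO against WT within a pool among the strand exchange genes tested in both pools. Its FPKM was 0.514, 4.54 and 0.381 in WT polysomes, 2.64, 7.65 and 4.35 in KO polysomes, 1.2, 1.78 and 5.43 in WT RNP and 3.22, 4.64 and 3.48 in KO RNP. Groups overlapped in both pools, and changes of 1.29 in polysomes (SE 0.65, adjusted p = 0.246 from limma) and 0.48 in RNP (SE 0.45, adjusted p = 0.497 from limma) were not called.

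Brca2, a mediator of strand exchange, stood at 52.8, 64.9 and 48.8 FPKM in WT polysomes, 37.0, 34.2 and 50.8 FPKM in KO polysomes, 32.5, 48.0 and 35.0 FPKM in WT RNP and 29.7, 21.7 and 28.9 FPKM in KO RNP. KO RNP lay below WT RNP without overlap, and in polysomes KO replicate 3 reached into the WT range. Its changes were -0.45 in polysomes (SE 0.22, adjusted p = 0.240 from limma) and -0.50 in RNP (SE 0.21, adjusted p = 0.125 from limma), both uncalled. Xrcc3, the more abundant of the 2 Xrcc genes of this role, stood at 56.4, 34.0 and 36.1 FPKM in WT polysomes, 23.8, 38.2 and 36.6 FPKM in KO polysomes, 68.5, 61.2 and 73.3 FPKM in WT RNP and 58.7, 60.1 and 49.6 FPKM in KO RNP. KO RNP libraries were again all below WT, but changes of -0.34 in polysomes (SE 0.28, adjusted p = 0.486 from limma) and -0.27 in RNP (SE 0.14, adjusted p = 0.221 from limma) were not called. Exons of Xrcc3 overlap those of Klc1, and exons of Brca2 those of Gm42529, so their reads are not fully separable.

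The other strand exchange genes had no call in any comparison. Palb2, which links BRCA1 to BRCA2, ranged from 18.0 to 37.7 FPKM, and Xrcc2 and Rad51d from 2.69 to 43.4 FPKM and from 5.42 to 16.6 FPKM. Rad52, an annealing protein, ranged from 3.30 to 11.0 FPKM and Rad54l, a DNA translocase of recombination, from 1.15 to 4.77 FPKM. Dmc1, the meiosis-specific recombinase, was near the limit of detection in GV oocytes, which are past recombination. It stood at 0, 0 and 0.0770 FPKM in WT polysomes, 2.32, 0 and 2.16 FPKM in KO polysomes, 2.23, 3.81 and 0 FPKM in WT RNP and 0.160, 0.718 and 0 FPKM in KO RNP. Its libraries were scattered within groups, and its ratio change of 2.08 was not called (SE 0.84, unadjusted p = 0.0280, adjusted p = 0.367 from limma).

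None of 7 end processing genes was called between genotypes in either pool (limma, with Rad50 in polysomes and Rad50, Nbn, Mre11a and Rbbp8 in RNP at an unadjusted p under 0.05). Of all genes tested, 10.4% were called in polysomes and 20.7% in RNP. At an unadjusted limma p under 0.05 the shares of all genes were 26.3% and 34.1%. Rad50 is the coiled-coil subunit of the MRE11-RAD50-NBN complex that starts resection. It stood at 25.8, 21.9 and 18.6 FPKM in WT polysomes, 36.0, 28.9 and 32.4 FPKM in KO polysomes, 18.5, 16.3 and 20.2 FPKM in WT RNP and 11.7, 10.8 and 12.3 FPKM in KO RNP. In polysomes all KO libraries were above WT and in RNP all were below, with clear gaps. Its ratio change was 1.15 (SE 0.29, adjusted p = 0.143 from limma), not called, although its unadjusted p of 0.00166 was the lowest of the repair genes by limma. The polysome change was 0.54 (SE 0.24, adjusted p = 0.187 from limma) and the RNP change -0.61 (SE 0.21, adjusted p = 0.0696 from limma).

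Nbn, the signalling subunit of that complex, had the largest change of KO against WT within a pool in this group. Its level was low, at 1.83, 2.37 and 2.52 FPKM in WT polysomes, 3.76, 3.37 and 4.09 FPKM in KO polysomes, 2.23, 0.644 and 1.80 FPKM in WT RNP and 2.89, 3.76 and 4.61 FPKM in KO RNP. KO was above WT without overlap in both pools, but neither 0.55 in polysomes (SE 0.41, adjusted p = 0.437 from limma) nor 0.93 in RNP (SE 0.39, adjusted p = 0.129 from limma) was called. Mre11a, the nuclease subunit, ranged from 1.43 to 5.65 FPKM, and Rbbp8 (CtIP), which activates it, from 7.45 to 17.6 FPKM. Exo1, the exonuclease of long resection, ranged from 8.10 to 19.6 FPKM, and the helicases Blm and Wrn from 3.24 to 16.0 FPKM and from 1.86 to 10.2 FPKM. None of these 5 was called between genotypes. Mre11a overlaps Ankrd49 head to head. Ankrd49, named after its values were seen, went from 32.2, 22.0 and 33.5 FPKM in WT polysomes to 8.15, 4.68 and 9.16 FPKM in KO polysomes (change -1.88, SE 0.34, adjusted p = 0.0127 from limma) and from 54.3, 56.3 and 66.3 FPKM in WT RNP to 27.4, 22.8 and 28.2 FPKM in KO RNP (change -1.15, SE 0.16, adjusted p = 0.00164 from limma), while Mre11a had changes of 0.53 in polysomes (SE 0.53, adjusted p = 0.575 from limma) and 0.81 in RNP (SE 0.36, adjusted p = 0.142 from limma).

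None of the 3 base excision and 5 nucleotide excision genes tested was called between genotypes in either pool. The shares of all genes called were 10.4% in polysomes and 20.7% in RNP. Ercc3, a helicase of transcription factor IIH that opens DNA around a lesion, came nearest. It stood at 7.69, 6.26 and 15.0 FPKM in WT polysomes, 21.5, 19.0 and 23.5 FPKM in KO polysomes, 9.29, 8.46 and 7.35 FPKM in WT RNP and 6.56, 11.7 and 7.19 FPKM in KO RNP. KO polysomes were all above WT, while RNP libraries were mixed. The polysome change was 1.15 (SE 0.36, adjusted p = 0.0809 from limma), the RNP change -0.02 (SE 0.29, adjusted p = 0.979 from limma, 0.04 after either rescaling) and the ratio change 1.17 (SE 0.46, unadjusted p = 0.0257, adjusted p = 0.356 from limma). Ercc2, the second helicase of that factor, ranged from 4.11 to 19.9 FPKM. Ercc4 and Ercc5, the nucleases on either side of the lesion, ranged from 0 to 7.02 FPKM and from 4.23 to 10.8 FPKM, Ercc6, which acts at stalled polymerases, from 0.455 to 3.30 FPKM, and Ercc1, the partner of ERCC4, from 0 to 1.67 FPKM.

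Parp1, the sensor of single-strand breaks, stood at 4.39, 3.89 and 3.99 FPKM in WT polysomes, 6.75, 7.13 and 9.26 FPKM in KO polysomes, 3.98, 0.806 and 4.22 FPKM in WT RNP and 1.85, 2.52 and 1.94 FPKM in KO RNP. KO polysomes were above WT without overlap. The RNP libraries overlapped through WT RNP replicate 2. Its changes were 0.77 in polysomes (SE 0.38, adjusted p = 0.242 from limma) and -0.22 in RNP (SE 0.47, adjusted p = 0.780 from limma), and the RNP change turned to 0.01 without WT RNP replicate 1 and to 0.04 without WT RNP replicate 3. Xrcc1, the scaffold of nick repair, ranged from 5.26 to 14.1 FPKM and Lig3, its ligase, from 4.25 to 25.6 FPKM, both uncalled, and Lig1, the replicative ligase, stayed at or under 0.833 FPKM.

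Of the Fanconi anaemia genes, which act on DNA crosslinks, Fancc of the core complex was the most abundant, at 19.5 to 49.3 FPKM, and was not called. Its exons overlap those of 2010111I01Rik, and other overlapping pairs with reads that are not separable are Rad54l and Lrrc41, Xrcc4 and Tmem167, Xrcc6 and Desi1, Lig3 and Rffl, Atrip and Trex1, Pms2 and Rsph10b, Ercc2 and Klc3, Fancd2 and Fancd2os, Fanca and Zfp276, Ercc1 and Cd3eap, and Lig1 and Zswim9. Some further genes overlap only non-coding transcripts or pseudogenes. Fancm, a translocase that anchors the complex and the gene with the largest change of the group, stood at 13.2, 4.86 and 7.23 FPKM in WT polysomes, 6.21, 4.05 and 5.80 FPKM in KO polysomes, 4.24, 5.38 and 1.89 FPKM in WT RNP and 3.97, 2.56 and 3.28 FPKM in KO RNP. Genotypes overlapped in both pools, with changes of -0.49 in polysomes (SE 0.45, adjusted p = 0.542 from limma) and -0.12 in RNP (SE 0.39, adjusted p = 0.866 from limma). Without WT RNP replicate 2 the RNP change was 0.12, and without KO RNP replicate 2 it was 0.01. Fancd2, the substrate of the complex, ranged from 0.159 to 1.35 FPKM and Fanca from 0 to 0.137 FPKM.

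The pools were also compared within each genotype. FPKM is scaled to the depth of each library, whatever amount of RNA a pool held. A higher value in polysomes is therefore a larger share of the polysome RNA, and is not shown to be a larger amount of the transcript. In WT, limma called 4 of 42 genes higher in polysomes than in RNP, Brca1, Rpa1, Rpa2 and Lig4, beside 7.97% of all 9574 genes, and none lower, beside 6.72% (14.7% in either direction). At an unadjusted limma p under 0.05, 9 were higher and 2 lower, 26.2% of those tested beside 29.0% of all genes. The 4 genes are 9.52% of those tested, near the background for higher calls and under it for both directions. In KO, 11 of 42 were called higher, beside 15.5% of all 9851 genes, and only Xrcc3 lower, beside 13.8%. With both directions counted, 28.6% of repair genes and 29.2% of all genes were called in KO, so this combined share was near the background. By direction, 26.2% of repair genes were called higher, beside 15.5% of all genes, and 2.38% lower, beside 13.8%. These shares by direction were not tested. The median difference, polysome less RNP, was 0.11 in WT and 0.36 in KO, beside -0.09 and -0.04 for all genes. The WT median was 0.25 after quantile normalization and 0.20, 0.29 and 0.18 without WT polysome replicate 1, WT polysome replicate 2 and WT RNP replicate 1, and the KO median was 0.23 without KO RNP replicate 3, so the medians of the genotypes are not shown to differ. Polysome libraries lay above all RNP libraries for 10 genes and below for 2 in WT, beside 16.7% and 17.9% of all genes, and for 18 and 2 in KO, beside 22.5% and 21.7%.

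**Figure D4:**
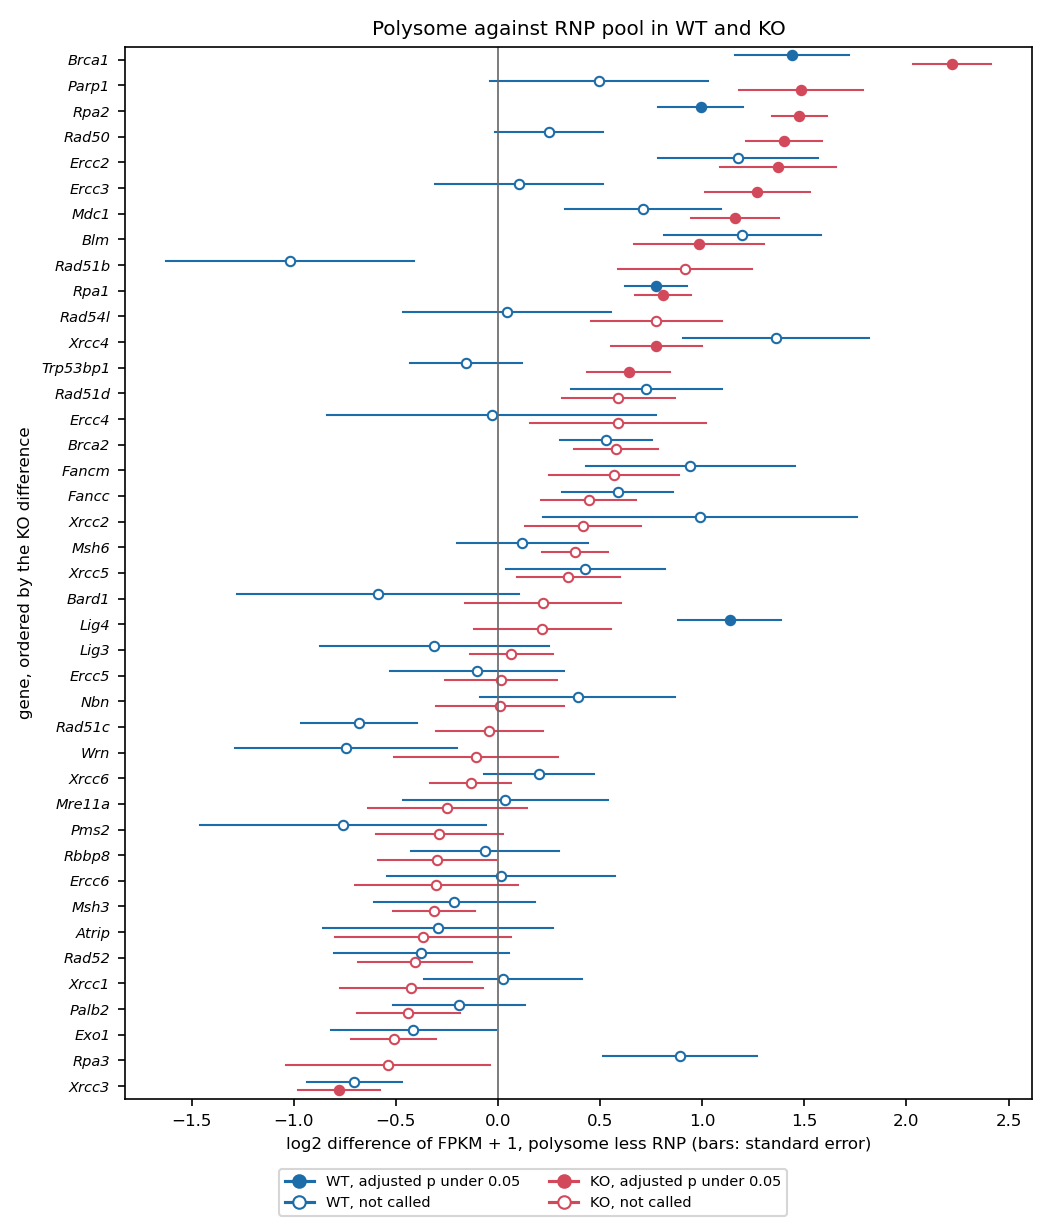
Log2 difference of FPKM + 1, polysome less RNP, in WT (blue) and KO (red) for the 41 repair genes tested in both, ordered by the KO value, with the standard error from limma and filled where the adjusted p was under 0.05. Brca1 is at the top (1.44 in WT and 2.22 in KO) and Xrcc3 at the bottom (-0.70 and -0.78).

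The values given above show the order. Brca1 differed by 1.44 in WT (SE 0.28, adjusted p = 0.0108 from limma) and 2.22 in KO (SE 0.19, adjusted p = 4.87e-05 from limma), with every polysome library above every RNP library. Rpa1 differed by 0.77 in WT (SE 0.15, adjusted p = 0.0112 from limma) and 0.81 in KO (SE 0.14, adjusted p = 0.00224 from limma). Rpa2 differed by 0.99 in WT (SE 0.21, adjusted p = 0.0149 from limma) and 1.47 in KO (SE 0.14, adjusted p = 7.10e-05 from limma). Together Rpa1 and Rpa2 made up 26.8% to 30.1% (WT) and 32.8% to 34.6% (KO) of the summed FPKM of repair genes on polysomes, and 19.7% to 21.3% (WT) and 22.8% to 24.1% (KO) outside them. Lig4 differed by 1.13 in WT (SE 0.25, adjusted p = 0.0195 from limma) and by 0.22 in KO (SE 0.34, adjusted p = 0.672 from limma), where its polysome and RNP libraries overlapped. The WT calls of Rpa1 and Rpa2 were lost without the intensity trend (adjusted p = 0.0817 and 0.0729 from limma). That of Rpa2 was also lost without WT RNP replicate 2 (adjusted p = 0.0590 from limma), and that of Lig4 without WT polysome replicate 2, WT RNP replicate 1 or WT RNP replicate 2 (adjusted p = 0.0556, 0.0724 and 0.0579 from limma), so that 2 genes were called higher without WT RNP replicate 2. Without WT polysome replicate 1, Ercc2 was also called higher and Xrcc3 lower.

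In KO, Rad50 differed by 1.40 (SE 0.19, adjusted p = 0.000571 from limma), against 0.25 in WT (SE 0.26, adjusted p = 0.578 from limma). Ercc3, Parp1 and Mdc1 were called in KO at 1.27, 1.49 and 1.16, with adjusted p of 0.00568, 0.00586 and 0.00361 from limma, and at 0.10, 0.49 and 0.71 were not called in WT. No ratio between genotypes passed the test for these genes, so the KO difference is not shown to exceed the WT one. Ercc2 stood at 14.0, 18.4 and 16.7 FPKM in KO polysomes and 8.18, 4.11 and 5.39 FPKM in KO RNP, a difference of 1.37 (SE 0.28, adjusted p = 0.00640 from limma), and at 10.1, 19.9 and 17.5 FPKM against 8.31, 5.34 and 5.30 FPKM in WT (difference 1.17, adjusted p = 0.0798 from limma). These genes and Brca1, Rpa1 and Rpa2 were called in KO whichever library was left out.

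The other KO calls were less firm. Blm stood at 7.17, 16.0 and 10.2 FPKM in KO polysomes and 4.69, 4.74 and 5.16 FPKM in KO RNP, a difference of 0.98 (SE 0.32, adjusted p = 0.0450 from limma), which was lost without KO polysome replicate 2 or 3 or any KO RNP library (adjusted p = 0.128, 0.0787, 0.119, 0.116 and 0.0999 from limma) and with no filter (adjusted p = 0.0919 from limma). Trp53bp1 differed by 0.64 (SE 0.20, adjusted p = 0.0413 from limma), lost without the same 5 libraries (adjusted p = 0.0986, 0.0745, 0.125, 0.117 and 0.0837 from limma). Xrcc4 differed by 0.78 (SE 0.22, adjusted p = 0.0277 from limma), lost without KO polysome replicate 2 or 3 or KO RNP replicate 1 or 2 (adjusted p = 0.0851, 0.0754, 0.0652 and 0.104 from limma), with no filter (adjusted p = 0.0627 from limma) and without the trend (adjusted p = 0.0633 from limma). Its polysome libraries were all above its RNP libraries in KO. Xrcc3, at -0.78 (SE 0.20, adjusted p = 0.0179 from limma), was the only gene called higher in RNP, and was lost without KO RNP replicate 1 or 2 (adjusted p = 0.0674 and 0.0712 from limma) and without the trend (adjusted p = 0.0531 from limma). Without KO polysome replicate 1, Palb2 was also called lower in polysomes than in RNP and Atr, Fancc and Msh6 higher, and without KO polysome replicate 3 Rad51b was called higher.

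The Brca1 sequence is shown because Brca1 had the largest pool difference in both genotypes and starts 194 bases from Nbr1, which is read in the opposite direction. The 193 bases between the starts lie at chr11:101551956-101552148 on the minus strand of GRCm38.p6 (RefSeq), outside both genes, and capitals mark CCAAT on either strand.
Brca1: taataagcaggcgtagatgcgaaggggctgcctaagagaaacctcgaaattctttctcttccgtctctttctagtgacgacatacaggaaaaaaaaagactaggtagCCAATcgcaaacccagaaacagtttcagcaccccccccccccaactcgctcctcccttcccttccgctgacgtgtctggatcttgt
Nbr1, an autophagy receptor gene added after its values were seen, stood at 18.3, 16.7 and 19.5 FPKM in WT polysomes, 22.1, 42.4 and 23.7 FPKM in KO polysomes, 31.6, 31.6 and 34.4 FPKM in WT RNP and 37.9, 35.6 and 39.8 FPKM in KO RNP. It lay higher in RNP than in polysomes in WT (difference -0.81, SE 0.23, adjusted p = 0.0471 from limma), opposite to Brca1. In KO its difference of -0.41 was not called (SE 0.24, adjusted p = 0.242 from limma). In all, 17 of the 49 repair genes have a coding gene of the table that starts on the opposite strand within 1000 bases.

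A companion list of 142 other repair genes, 140 of them in the table, was read in the same way. In polysomes 1 of 119 tested was called higher and 10 lower (9.24%, beside 10.4% of all genes), with a median change of 0.03, and in RNP 9 of 114 were higher and 16 lower (21.9%, beside 20.7%), with a median of -0.20. The 10 became 6 without WT polysome replicate 1 or 2 or KO polysome replicate 1, and 4 without KO polysome replicate 2 or 3. The polysome median was -0.06 without WT polysome replicate 3, so it has no fixed sign. The 9 became 5 without KO RNP replicate 1 or 3. Without KO RNP replicate 1 the RNP median was -0.10. By role, the polysome calls were 1 strand exchange gene, 1 meiotic recombination gene, 2 signalling genes, 2 nucleotide excision genes and 4 Fanconi anaemia genes lower, and 1 nucleotide excision gene higher. In RNP, higher and lower calls were 2 and 1 in strand exchange, 1 and 2 in end processing, 0 and 4 in signalling, 2 and 2 in base excision, 3 and 2 in nucleotide excision, 1 and 4 in Fanconi anaemia and 0 and 1 in translesion synthesis and direct reversal. Mismatch repair and end joining had none in either pool (limma).

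Among those called, H2afx, the histone variant phosphorylated at breaks and bound by MDC1, was abundant and lower in both pools. Its FPKM was 616, 728 and 614 in WT RNP and 164, 129 and 177 in KO RNP, a change of -2.06 (SE 0.13, adjusted p = 2.50e-05 from limma). The polysome pool went from 331, 296 and 225 FPKM to 109, 87.8 and 79.7 FPKM. Xpc, the lesion sensor upstream of ERCC3, rose in both pools. It stood at 7.64, 10.3 and 7.61 FPKM in WT polysomes against 25.9, 19.4 and 27.5 FPKM in KO polysomes (change 1.41, SE 0.30, adjusted p = 0.0228 from limma), and at 5.97, 3.50 and 5.67 FPKM in WT RNP against 13.5, 11.9 and 14.9 FPKM in KO RNP (change 1.27, SE 0.28, adjusted p = 0.0129 from limma). The polysome call was lost without KO polysome replicate 1, 2 or 3 (adjusted p = 0.0902, 0.0589 and 0.105 from limma) and the RNP call without KO RNP replicate 1 or 3 (adjusted p = 0.0569 and 0.0637 from limma). KO and WT did not overlap for either gene in either pool.

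In polysomes the other named genes were 2610002J02Rik, the symbol under which Faap20, a FANCA-binding subunit, is listed, and Psmc3ip, a cofactor of DMC1. The first went from 35.8, 48.7 and 26.2 FPKM to 2.51, 4.26 and 13.6 FPKM (change -2.51, SE 0.52, adjusted p = 0.0207 from limma), and was lost without WT polysome replicate 2, KO polysome replicate 1 or KO polysome replicate 2 (adjusted p = 0.0570, 0.0642 and 0.0864 from limma), with no filter (adjusted p = 0.0657 from limma) and without the trend (adjusted p = 0.0571 from limma). Psmc3ip went from 16.5, 9.23 and 14.1 FPKM to 4.88, 3.25 and 1.18 FPKM (change -1.88, SE 0.49, adjusted p = 0.0442 from limma) and was lost whichever of the 6 libraries was left out, with an adjusted p of 0.0526 to 0.131 from limma. It was also lost with a pseudocount of 0.1, with no filter and without the trend (adjusted p = 0.0631, 0.0982 and 0.0602 from limma). KO lay below WT for both.

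In RNP, Alkbh2, which reverses alkylation directly, went from 14.5, 12.1 and 19.4 FPKM in WT to 2.02, 1.23 and 2.73 FPKM in KO (change -2.45, SE 0.33, adjusted p = 0.00123 from limma). Gtf2h3, a subunit of transcription factor IIH, went from 20.7, 37.8 and 16.4 FPKM to 6.49, 8.54 and 6.98 FPKM (change -1.56, SE 0.32, adjusted p = 0.00867 from limma). Cetn2, a centrin that also binds XPC, went from 53.0, 42.7 and 34.1 FPKM to 115, 104 and 103 FPKM (change 1.31, SE 0.17, adjusted p = 0.00100 from limma). None of these 3 calls depended on a single library. Eme1, the partner of the MUS81 nuclease, went from 3.86, 2.51 and 0.524 FPKM to 5.37, 8.14 and 10.7 FPKM (change 1.57, SE 0.47, adjusted p = 0.0448 from limma), and was lost without WT RNP replicate 2 or 3 or any KO RNP library (adjusted p = 0.0584, 0.0760, 0.0697, 0.130 and 0.158 from limma), with a pseudocount of 0.1, with no filter and without the trend (adjusted p = 0.0731, 0.125 and 0.0710 from limma).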

How the data were processed

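According to the submitters' notes, paired reads of 150 bases were trimmed, aligned by the authors with TopHat2 2.0.13 (mm10) and turned into FPKM by Cufflinks 2.2.1. The deposited table holds FPKM of 24259 symbols in 12 libraries. FPKM carries no counts, and depth is an estimate from the spacing of small FPKM values, with annotated length less 200 bases. Columns of the authors' comparisons hold log2 changes, p-values and q-values from cuffdiff and were not used. Libraries were grouped by their labels.

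Linear models of log2(FPKM + 1) were fitted with limma 3.58.1 (intensity trend) in R 4.3.3 on genes at 1 FPKM or more in at least 3 libraries of a comparison, with Benjamini-Hochberg adjustment at 0.05. Python 3.11.15, pandas 2.3.3, numpy 2.4.6, scipy 1.17.1 and matplotlib 3.10.9 served for tables, the exact test and figures. The fits were tested on simulated data. Of genes given a log2 change of 1 there, 6% were recovered in polysomes, 30.5% in RNP and 4% in the ratio. With a change of 2 the shares were 62%, 82% and 49%. A gene that was not called is therefore not shown to be unchanged. Alternatives were pseudocounts of 0.1 and 5, no filter, a filter at 5 FPKM, rescaling to the same median, quantile normalization, a replicate block, no intensity trend, and each library left out.

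Full values were given for repair genes called between genotypes, the 5 highest means and, per role, the largest change within a pool among those tested in both pools. Genes called between pools were given by values, those under the filter by name, and other repair genes by counts, with up to 3 called per direction and pool. Genes beyond this rule were chosen after their values were seen. Members and lists were chosen with earlier results of these data known. Annotation was GENCODE M21 (GRCm38) and RefSeq (GRCm38.p6).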

Additional observations from a re-analysis of the deposited data

Results flagged for a closer look

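For 3 of 121 genes tested of the companion list (2.48%, beside 0.237% of all 10949 genes), none of them among the 49, the interaction term of limma, which tests whether the KO effect differs between the pools, passed the threshold, and each of the 3 calls was lost without the intensity trend. Cetn2 had a ratio change of -1.76 (SE 0.21, adjusted p = 0.0109 from limma). Its FPKM was 227, 213 and 225 in WT polysomes against 164, 165 and 157 in KO polysomes, and 53.0, 42.7 and 34.1 in WT RNP against 115, 104 and 103 in KO RNP, so that KO was lower in polysomes and higher in RNP. The call was lost without KO RNP replicate 2 or 3 (adjusted p = 0.0541 and 0.0507 from limma) and without the trend (adjusted p = 0.0658 from limma).

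Stra13, a histone-fold subunit that binds FANCM, had a ratio change of -1.20 (SE 0.20, adjusted p = 0.0243 from limma). Its FPKM was 229, 236 and 269 in WT polysomes against 187, 155 and 154 in KO polysomes, and 260, 186 and 190 in WT RNP against 338, 299 and 340 in KO RNP. The call was lost without KO polysome replicate 2 or 3 (adjusted p = 0.0957 and 0.0748 from limma), WT RNP replicate 2 or 3 (0.0769 and 0.0856) or any KO RNP library (0.103, 0.0644 and 0.0897), with no filter (0.0560) and without the trend (0.188).

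Rnf8, a ubiquitin ligase recruited by MDC1, had a ratio change of 0.80 (SE 0.15, adjusted p = 0.0490 from limma). Its FPKM was 227, 266 and 225 in WT polysomes against 207, 195 and 189 in KO polysomes, and 278, 274 and 308 in WT RNP against 143, 130 and 132 in KO RNP, lower in KO in both pools and more so in RNP. It was called in 1 of 12 fits with a library left out, with an adjusted p of 0.0319 to 0.172 from limma. It was lost with a pseudocount of 5, after median rescaling, after quantile normalization and without the trend (adjusted p = 0.0507, 0.0501, 0.0615 and 0.308 from limma).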

How the results depend on the processing

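For 68 results of single genes, 1005 values under the alternatives kept direction and side of the threshold in 888 cases, lost the call in 99, gained it in 4 and changed sign in 14. Signs changed for small RNP changes that were not called: Ercc3 (0.0405 after median rescaling and 0.0362 after quantile normalization, -0.25 to 0.13 with each library left out), Rpa2 (0.0473 and 0.0319, -0.13 to 0.0915), Fancm (-0.45 to 0.12) and Parp1 (-0.72 to 0.0424). The cause was not tested. Of the counts, repair genes lower in polysomes numbered 2 with a pseudocount of 5 and 2 with a filter at 5 FPKM, those higher in RNP numbered 1 without the intensity trend, and those lower in polysomes than RNP in KO numbered 0 without it. With each library left out, they ranged from 0 to 1 higher in polysomes, 0 to 4 higher and 2 to 4 lower in RNP, 2 to 5 higher and 0 to 1 lower between WT pools, and 8 to 14 higher and 0 to 2 lower between KO pools.

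Same-numbered libraries of different groups had correlations of deviations between -0.02 and 0.03 over 12 pairs, so no pairing by replicate number was seen. Spread between libraries can hide a shared lysate, so these correlations cannot show that same-numbered pools came from separate lysates. With the replicate block, higher and lower counts were 0 and 1 in polysomes, 3 and 3 in RNP, 0 and 0 in the ratio, 4 and 0 between WT pools and 10 and 1 between KO pools. The block ended the calls of Psmc3ip and Xpc in polysomes and Eme1 in RNP (adjusted p = 0.0652, 0.0586 and 0.0790 from limma). It also ended those of Rnf8 in the ratio and of Blm and Trp53bp1 between KO pools (adjusted p = 0.0990, 0.0597 and 0.0787 from limma). Brca2 was called higher between KO pools with it. Depth of 4.87 to 7.91 (in units of 1000000 fragments) and 3 libraries a group limit what can be called for genes near 1 FPKM.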
